A study of Mus musculus with 6 samples.

Results

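Amino acid transporters are membrane proteins that carry amino acids into cells, out of cells and across the lysosomal membrane. The genes described here belong to the 6 solute carrier families that hold most of them: Slc1, Slc6, Slc7, Slc36, Slc38 and Slc43. They were chosen as the genes on the array whose symbol begins with one of these family names, leaving out Slc6a8 and Slc7a5, and each gene was read from its brightest probe set. This gave 59 of the 18193 genes with a probe set naming that gene alone, and 37 of the 59 were bright enough to test, against 12947 of all genes. The rule also takes in some genes that do not carry amino acids: the monoamine carriers Slc6a2, Slc6a3 and Slc6a4, the nucleobase carrier Slc43a3, and 3 opposite-strand genes (Slc36a1os, Slc6a19os and Slc7a6os) that encode no transporter.

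The cells were inguinal fat cells of the mouse after differentiation, from a white fat depot, hybridised to 6 arrays: 3 without the drug and 3 with 1 uM rosiglitazone for 4 days. Rosiglitazone activates PPARγ, the nuclear receptor that drives fat cell differentiation, and the labels describe the treated state as beiging, the gain of heat-producing features. The labels name no strain, age or genotype. They also do not say whether the 3 samples of a group are separate cultures, and the error behind each p-value, being that between samples, may therefore be technical. The treatment protocol in the labels gives rosiglitazone for all 6 samples, and the groups were taken from the sample titles.

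Transporters differ in how they are driven. Carriers of the Slc1, Slc6 and Slc38 families mostly couple uptake to sodium, and some of Slc36 couple it to protons. Many of Slc7 swap one amino acid for another and need the partner protein encoded by Slc3a2 or Slc3a1 to reach the membrane. In fat cells amino acids feed lipid and protein synthesis and the growth kinase mTORC1. Slc7a10 and Slc36a2 have been proposed as surface markers, the first of white and the second of brown and beige fat cells.

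The labelled cell type and treatment were checked on marker genes. General fat cell markers were bright on every array (summed intensity 64100 to 65420 on control and 63180 to 64150 on treated arrays). Of 7 tested, Pparg, Cebpa and Lipe fell (−0.36, −0.25 and −0.23, and −0.23, −0.12 and −0.10 after median centring), Cidec rose (0.28), and the other 3 were not called. All 7 tested markers of heat-producing fat rose, among them Ucp1, which was at least 93.4-fold higher. Markers of other cells moved as well: 12 of 12 tested macrophage markers fell (summed intensity 13420 to 14660 on control arrays and 4541 to 4964 on treated arrays), as did 5 of 6 preadipocyte and fibroblast markers (7090 to 7181 and 3013 to 3078), 5 of 7 smooth muscle and pericyte markers, where 1 rose (8824 to 9289 and 4984 to 5097), and 4 of 4 proliferation markers (2647 to 2711 and 1821 to 1834). Of 8 endothelial markers, Tek and Flt1 fell (Flt1 at −1.57, or −0.78 with its probe sets averaged), and the other 6, Pecam1 and Cdh5 among them, were too dim to test (420.6 to 440.7 and 210.3 to 226.5). The endothelial markers Tie1 and Emcn lay under an intensity of 16 on all 6 arrays, and no marker was listed at 0. Of 7 tested neuron and Schwann cell markers 1 rose, S100b, and 2 fell, Sox10 and Tubb3 (512.6 to 547.8 and 795.6 to 896.9). S100b alone went from a mean of 159.0 to 516.5, so the rise of this sum follows that gene. In such bulk samples fewer cells of a type and less RNA per cell cannot be told apart, and the part of these cells in the transporter values was not tested.

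Of the 37 tested genes 5 rose and 16 fell with rosiglitazone at a limma adjusted p under 0.05. Among all genes tested 23.5% rose and 35.7% fell, so 13.5% and 43.2% of the transporter-family genes lie near that background. Their median log2 change (treated minus control, so that −1 is a halving) was −0.14 against −0.05 for all genes tested. The share of all genes that fell depends on how the arrays are scaled. After centring each array on its median 35.1% of all genes rose and 25.3% fell, and 6 and 13 of the transporter-family genes did. After quantile normalization the shares were 30.4% and 29.1% of all genes, and the counts 5 and 13. That centring raised the median change of all genes by 0.12, from −0.05 to 0.07.

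**Figure D1:**
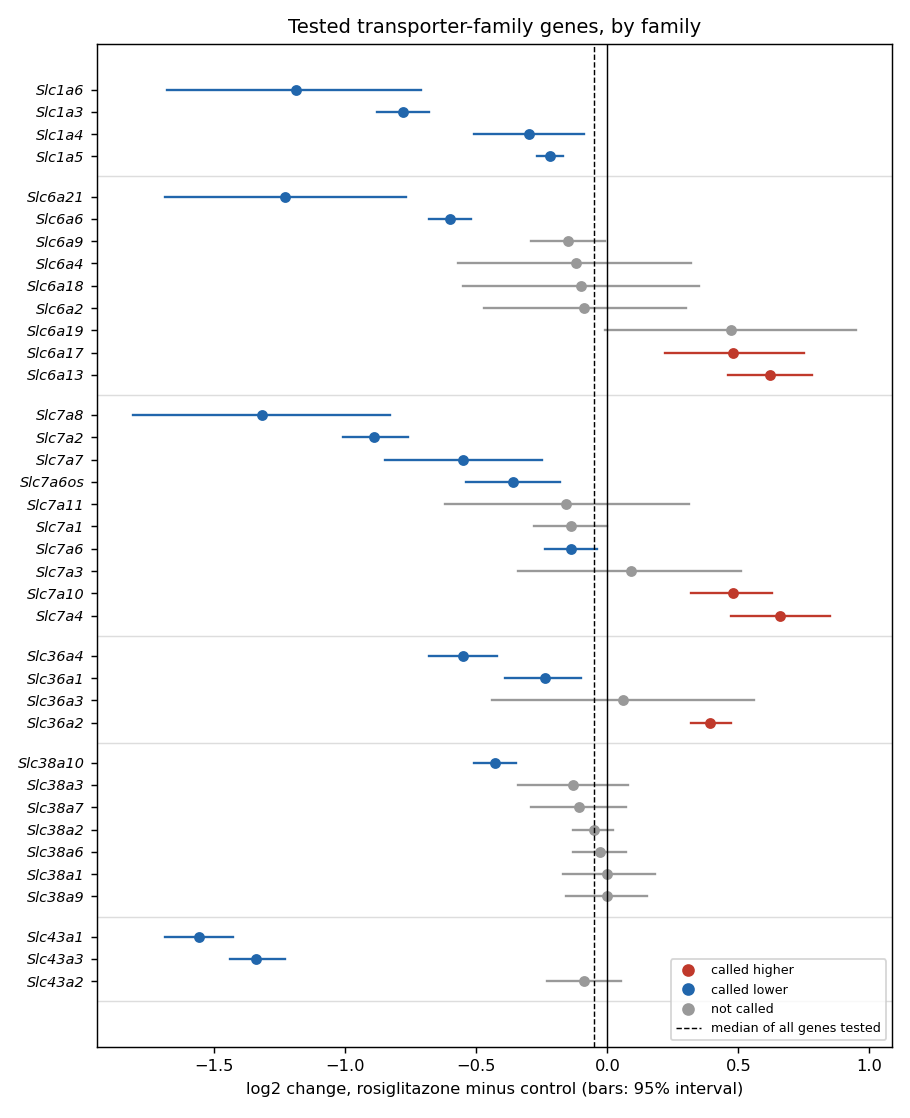
Log2 change (rosiglitazone minus control) of each of the 37 tested genes with its 95% interval from limma, grouped by family. Red points were called higher, blue lower and grey not called, the dashed line is the median of all genes tested (−0.05), and changes run from −1.56 for Slc43a1 to 0.66 for Slc7a4.

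By size, at least a halving was called for 5 genes and a doubling for 0, where 4.56% and 1.49% of all genes had one. A change of at least 0.5 on the log2 scale was called for 10 falls and 2 rises (14.7% and 6.99% of all genes). The 3 treated arrays lay wholly below the 3 control arrays for 16 genes and wholly above for 5, against 38.2% and 25.7% of all genes tested. A gene passed the filter on its mean over both groups, and 4 tested genes passed only through one of them: Slc1a6, Slc6a21 and Slc7a8 had a treated mean, and Slc6a19 a control mean, under the filter's intensity of 26.75. The 33 others had 5 rises and 13 falls, among them 2 halvings (Slc43a1 and Slc43a3), 7 falls of at least 0.5 and 2 rises of that size, so 3 of the 5 halvings belong to genes close to the detection limit.

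The largest falls were in the Slc43 family, whose members work without coupling to sodium. Slc43a1 encodes LAT3, a facilitator of leucine and other large neutral amino acids. Its intensity was 604.6, 559.4 and 622.3 on the control arrays and 195.7, 211.3 and 198.3 with rosiglitazone. The groups lay far apart, and Slc43a1 fell by 1.56 on the log2 scale (SE 0.06, adjusted p = 1.75e-12), from 595.5 ± 32.4 to 201.8 ± 8.34 (mean ± SD, n = 3 each, as for all values below).

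Slc43a3, whose product carries purine nucleobases, fell in the same way. It read 2101, 2128 and 2164 on control arrays and 783.0, 825.3 and 930.9 on treated arrays, a fall by 1.34 (SE 0.05, adjusted p = 1.72e-12). The remaining member, Slc43a2, encodes LAT4, which is close to LAT3 in substrates. Its groups overlapped at 374.1 ± 33.2 and 350.4 ± 12.3, and its log2 change was −0.09 (95% interval −0.23 to 0.05, adjusted p = 0.252). It was called, at −0.16, without control replicate 3.

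Slc43a1 showed the largest change of these genes, and the bases before its annotated start are given for that reason. They are the 250 bases before the start at chr2:84840073-84840322 of GRCm38.p6, plus strand, from RefSeq, with an E-box (CACGTG, a palindrome, 64 to 59 bases before the start) in capitals.
Slc43a1: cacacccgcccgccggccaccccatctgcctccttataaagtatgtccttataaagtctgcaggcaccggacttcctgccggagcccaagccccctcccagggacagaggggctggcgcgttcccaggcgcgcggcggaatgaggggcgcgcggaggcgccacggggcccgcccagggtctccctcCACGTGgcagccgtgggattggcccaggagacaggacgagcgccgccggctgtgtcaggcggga
E-box letters occur in 7.15% of all 32851 promoter windows of 300 bases (250 before and 50 after a start). They occur in those of 4 of the 26 tested genes that have a window: Slc43a1, Slc1a6, Slc36a1 and Slc38a7. The share counts windows and the 4 counts genes, some with several windows, so they cannot be compared directly. The DR1 element, bound by PPARγ with its partner RXR, was searched on both strands as a direct repeat of AGGTCA with a single base of any kind between, and stands in 0.0396% of all windows and in 0 of these 26. One AGGTCA unit occurs on either strand in 16.3% of windows and in those of Slc6a13, Slc36a1 and Slc7a7. Such matches describe letters in these windows, not bound sites.

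All 4 tested members of the Slc1 family fell, where 35.7% of all genes tested did. The calls of Slc1a4 and Slc1a6 were lost under some alternatives, as given below. Slc1a3 encodes the glutamate and aspartate carrier GLAST. It read 1412, 1434 and 1277 on control arrays and 802.9, 775.0 and 814.4 on treated arrays. Slc1a3 fell by 0.78 (SE 0.05, adjusted p = 3.74e-10), and each of its 5 probe sets above the filter was called lower, the other 4 at log2 changes of −0.87 to −0.62.

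Slc1a6, a glutamate carrier gene known from Purkinje neurons, was dim, at 57.96, 45.81 and 37.13 on control arrays and 20.11, 18.51 and 22.13 with rosiglitazone. It fell by 1.19 (SE 0.23, adjusted p = 0.000272), close to the floor of 16 under which intensities were not read, and with a floor of 64 the change was 0.00 and not called. Slc1a5 encodes ASCT2, a glutamine carrier, and was bright on every array. It read 7213, 7293 and 7194 on control arrays and 6120, 6231 and 6247 on treated arrays. The groups were separate but near each other, and Slc1a5 fell by 0.22 (SE 0.02, adjusted p = 4.57e-07). The change was −0.10 after median centring and −0.34 with the mean of its probe sets, called in both.

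The related exchanger gene Slc1a4 fell by 0.30 (SE 0.10, adjusted p = 0.0146), from 193.6 ± 29.5 to 156.0 ± 4.68. Of its dimmer probe sets one was called lower at −0.50 and the other was not called at −0.18. The call of the brightest probe set was weak. It was lost after median centring (−0.18), after quantile normalization (−0.19) and without control replicate 2 (−0.21), and at the same −0.30 with no filter, a 20% filter, a floor of 64 or no variance trend. The remaining Slc1 members, Slc1a1, Slc1a2 and Slc1a7, did not pass the filter.

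**Figure D2:**
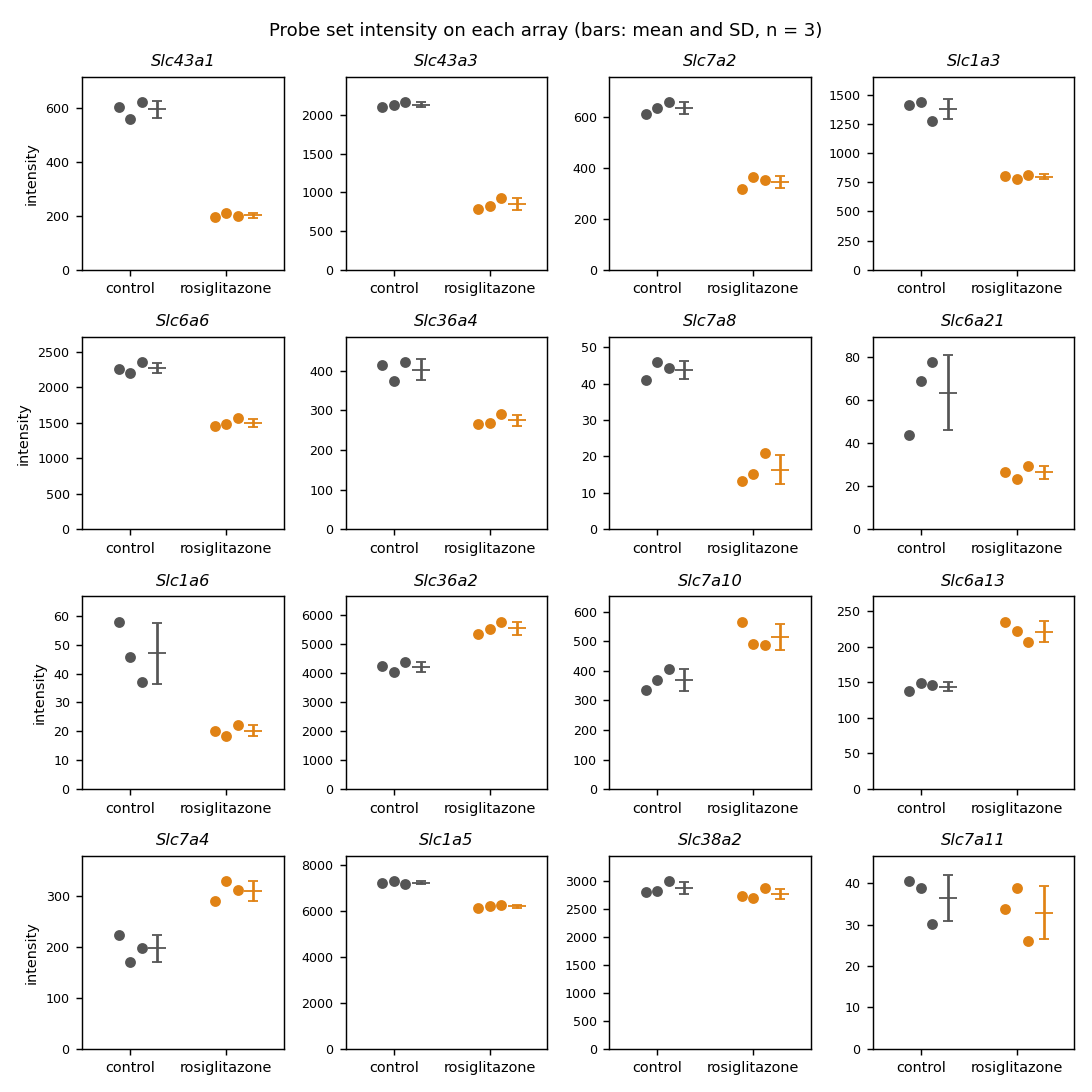
Intensity of the chosen probe set on each of the 3 control (grey) and 3 rosiglitazone (orange) arrays for 16 genes, each panel on its own linear axis from 0, with the group mean and SD beside the points. Treated arrays lie wholly below control arrays in the panels of Slc43a1 to Slc1a6 and of Slc1a5, wholly above in those of Slc36a2, Slc7a10, Slc6a13 and Slc7a4, and overlap the control arrays in those of Slc38a2 and Slc7a11.

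In the Slc7 family the cationic and the exchanging carriers were both mixed. Slc7a2 encodes CAT2, a carrier of arginine and lysine. It read 611.8, 635.4 and 656.3 on control arrays and 315.8, 364.2 and 351.4 on treated arrays, a log2 change of −0.89 (SE 0.06, adjusted p = 1.42e-09). A dimmer probe set was also called lower, at −0.87, and the remaining one, near the filter, was not called at −0.22.

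Slc7a1 encodes CAT1, the widespread arginine carrier, and did not pass the test. Its log2 change was −0.14 (95% interval −0.28 to 0.00, adjusted p = 0.0818), at 598.1 ± 46.9 and 543.5 ± 44.8, and it was called, at −0.20, without control replicate 1 or rosiglitazone replicate 3. Slc7a3, the gene of another cationic carrier, was dim and had a log2 change of 0.09 (adjusted p = 0.741).

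Slc7a4, a relative of the cationic carriers whose substrate is not settled, gave the largest rise among these genes. It read 222.9, 169.2 and 198.4 on control arrays and 289.5, 328.3 and 311.6 with rosiglitazone. The groups were separate, and Slc7a4 rose by 0.66 (SE 0.09, adjusted p = 6.62e-06).

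Among the exchangers Slc7a10, which encodes the small neutral amino acid exchanger Asc-1, rose. Its control arrays read 334.2, 368.6 and 408.3 and its treated arrays 567.0, 490.5 and 488.3. The rise was 0.48 (SE 0.07, adjusted p = 3.27e-05), so a gene proposed as a white fat marker rose in the same arrays as the markers of heat-producing fat.

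Slc7a8, the gene of the neutral amino acid exchanger LAT2, fell. It read 41.06, 45.91 and 44.32 on control arrays and 13.15, 15.20 and 20.93 on treated arrays, of which 2 lay under the floor. The log2 change was −1.32 (SE 0.23, adjusted p = 0.000111), and with a floor of 64, above all its values, the change was 0.00 and not called. Slc7a7 encodes y+LAT1, which exports cationic amino acids and is known from epithelia and macrophages. It read 68.70, 65.38 and 67.97 on control arrays and 47.27, 42.39 and 48.46 on treated arrays, a fall by 0.55 (SE 0.14, adjusted p = 0.0028). Its second probe set was not called, at 0.18, and with the mean of both the change was −0.18 and not called. With a floor of 64, close to its control values, it was −0.07 and called. In these arrays the macrophage markers fell, as given above by their sums, and their part in the fall of Slc7a7 was not tested.

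Slc7a6, the gene of the related exporter y+LAT2, fell by 0.14 (SE 0.05, adjusted p = 0.0141), from 854.4 ± 49.2 to 772.9 ± 7.66. Its other probe set was also called lower, at −0.28. The brightest lost its call after median centring (−0.02), after quantile normalization (−0.04), and without control replicate 3 (−0.10) or rosiglitazone replicate 2 (−0.14). With no filter or no variance trend its call was lost at the same −0.14. Slc7a6os, on the opposite strand beside it, fell by 0.36 (SE 0.08, adjusted p = 0.00167) in its brightest probe set, with −0.23 after median centring, where the call held. Its other probe set was not called, at 0.13, and the mean of both gave −0.11, not called. The brightest also lost its call with no filter or a floor of 64.

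Slc7a11 encodes xCT, which takes up cystine in exchange for glutamate to supply glutathione synthesis. It was dim, at 40.51, 38.82 and 30.17 on control arrays and 33.88, 38.87 and 26.04 on treated arrays. The groups overlapped, with a log2 change of −0.16 (95% interval −0.62 to 0.31, adjusted p = 0.568), so a change within that interval was not detectable here. Slc3a2, the partner subunit of most of these exchangers, was bright and was not called, at a log2 change of −0.03 (adjusted p = 0.50) and intensities of 1796 and 1756. The other partner gene, Slc3a1, was dim and not called (−0.20, adjusted p = 0.561).

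The Slc6 family holds sodium- and chloride-coupled carriers, many of neurotransmitters. Slc6a6 encodes the taurine carrier TauT. It read 2253, 2209 and 2358 on control arrays and 1459, 1481 and 1562 on treated arrays, and it fell by 0.60 (SE 0.04, adjusted p = 7.16e-10). Its other probe set above the filter was also called lower, at −0.72.

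Slc6a13 encodes GAT2, a carrier of GABA that also takes taurine, and it moved the other way. Its arrays read 137.0, 148.4 and 146.1 in control cells and 235.0, 222.0 and 206.0 with rosiglitazone, a rise by 0.62 (SE 0.08, adjusted p = 2.99e-06). Slc6a17, known as a vesicular carrier of neutral amino acids in neurons, rose by 0.48 (SE 0.12, adjusted p = 0.00304), from 105.2 ± 17.2 to 147.0 ± 21.3. Its groups overlapped, since control replicate 2 (125.0) lay above rosiglitazone replicate 1 (124.4). The call was lost with no filter on low values and with a floor of 64 (0.48 in both).

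Slc6a21 fell by 1.23 (SE 0.22, adjusted p = 0.00013) at low intensities. It read 43.85, 68.60 and 77.61 on control arrays and 26.65, 23.23 and 29.31 on treated arrays. With a floor of 64 the change was −0.13 and not called. The glycine carrier gene Slc6a9 was not called at −0.15 (adjusted p = 0.0645), and it was called without control replicate 3 (−0.18) or rosiglitazone replicate 3 (−0.22). The kidney and gut carrier gene Slc6a19 had treated arrays wholly above its control arrays, but it was dim and not called at 0.47 (adjusted p = 0.0842). It was called after median centring (0.59), and at the same 0.47 without the variance trend or with a lower filter (20% of probe sets left out). The noradrenaline carrier gene Slc6a2, the serotonin carrier gene Slc6a4 and Slc6a18 were dim and not called, at log2 changes of −0.09, −0.12 and −0.10. The other 11 genes of this family, the dopamine carrier gene Slc6a3 among them, did not pass the filter.

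The carriers of the Slc36 family did not move together. Slc36a2 encodes PAT2, the proposed surface marker of brown and beige fat. It read 4225, 4045 and 4376 on control arrays and 5326, 5502 and 5769 on treated arrays. The groups were separate, and Slc36a2 rose by 0.39 (SE 0.03, adjusted p = 4.65e-08), a 1.31-fold change. In the same arrays Ucp1 was at least 93.4-fold higher.

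Slc36a4, whose product is a high-affinity carrier of proline and tryptophan, fell. It read 413.6, 373.2 and 422.1 on control arrays and 266.3, 268.4 and 290.4 on treated arrays, a fall by 0.55 (SE 0.06, adjusted p = 1.27e-06). Slc36a1, which encodes the lysosomal carrier PAT1, fell by 0.24 (SE 0.07, adjusted p = 0.00521), from 309.2 ± 10.3 to 261.4 ± 21.2. This call was lost after median centring (−0.12) and quantile normalization (−0.13). Slc36a3 was dim and not called (0.06, adjusted p = 0.84).

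In the sodium-coupled Slc38 family 1 of 7 tested genes was called (14.3%), where 59.2% of all genes tested were. Slc38a10 fell by 0.43 (SE 0.04, adjusted p = 4.52e-08). It read 1593, 1603 and 1708 on control arrays and 1225, 1210 and 1199 on treated arrays, and 4 of its 6 probe sets above the filter were called lower and 0 higher.

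Slc38a2 encodes SNAT2, the glutamine and alanine carrier whose gene is induced when amino acids run short. It read 2792, 2810 and 2989 on control arrays and 2725, 2699 and 2872 on treated arrays. The groups overlapped, and the log2 change was −0.05 (95% interval −0.13 to 0.02, adjusted p = 0.237). Of its dimmer probe sets one was called lower at −0.23 and the other was not called at 0.11.

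Slc38a1, Slc38a3 and Slc38a6 were not called, at 0.00, −0.13 and −0.03 (Slc38a3 was called, at −0.23, without control replicate 3). The genes of the lysosomal members also missed the test. Slc38a9 encodes the arginine sensor of mTORC1 and had a log2 change of −0.00 (95% interval −0.16 to 0.15), with 0 of its 6 probe sets above the filter called. Its brightest probe set is of a kind that may also bind other transcripts. Slc38a7, a lysosomal glutamine carrier gene, was at −0.11 (95% interval −0.29 to 0.07). Slc38a4 and Slc38a5 did not pass the filter.

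The 22 genes that did not pass the filter read between 1.00 and 31.85 on all arrays, and 12 of them lay at or under the floor on all 6. For these genes the arrays give no direction.

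The brightest probe set and the others could be compared for 16 genes. In 0 of the 16 was one probe set called higher and another lower. No probe set of the 16 was called higher, so the comparison does not bear on the rises. The 5 called rises are not among the 16, since none has another probe set above the filter. In Slc7a7 and Slc7a6os the call of the brightest probe set was not met by the second.

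**Figure D3:**
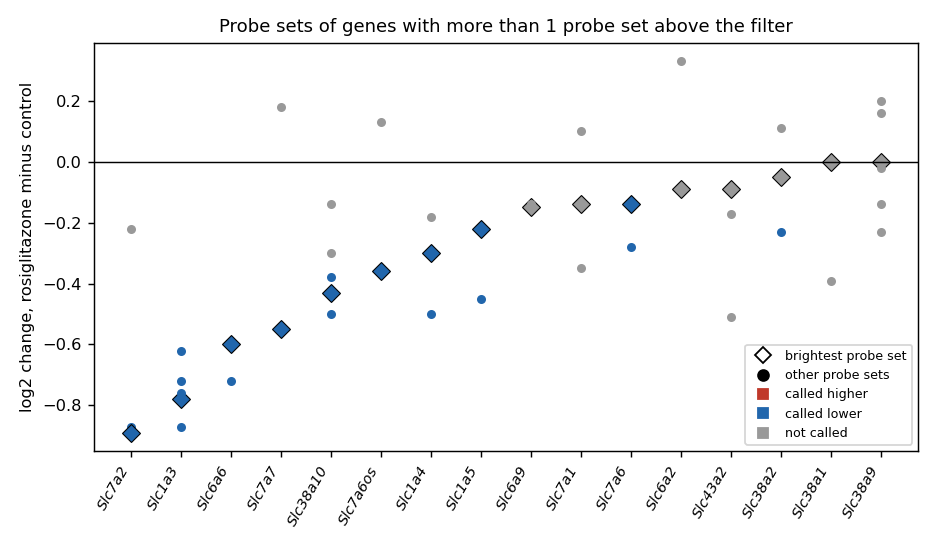
Log2 change (rosiglitazone minus control) of every probe set above the filter for the 16 genes with more than 1, with the brightest as diamonds and the others as circles, coloured by call. The probe sets of Slc1a3 lie together between −0.87 and −0.62, while the second probe sets of Slc7a7 (0.18) and Slc7a6os (0.13) lie above 0.

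Transporters outside these families, and their partners, moved little. Of 9 tested genes on that list 3 rose and 1 fell (median 0.02), 33.3% and 11.1% against 23.5% and 35.7% of all genes. The rises were in the lysosomal exporters of cystine, Ctns (0.26, SE 0.05), and of cationic amino acids, Slc66a1 (0.27, SE 0.06), and in Mfsd12 (0.21, SE 0.03; 0.33 after median centring), which takes cysteine into lysosomes. The fall was in Slc17a5, which encodes the lysosomal sialic acid carrier sialin (−0.24, SE 0.04; −0.15 after quantile normalization and −0.12 after median centring, called in both). The aromatic amino acid carrier gene Slc16a10 was not called (0.02, adjusted p = 0.825), but averaging its probe sets gave a called 0.21.

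Several transporter genes are known to be switched on by ATF4, the transcription factor of amino acid shortage. In a list of this pathway 9 of 14 tested genes rose and 2 fell (median 0.26). These are 64.3% and 14.3%, against 23.5% and 35.7% of all genes. Fgf21, which encodes a stress-induced hormone, was at least 9.46-fold higher with rosiglitazone, a bound because its control values were all below 16 (15.99, 14.71 and 11.70). Fgf21 passed the filter only through its treated arrays, since its control mean of 14.1 lay under the filter's intensity of 26.75. With a floor of 64 its log2 change was 1.24. The stress factor gene Ddit3 rose by 0.78 (SE 0.07), the pseudokinase gene Trib3 by 0.73 (SE 0.05) and Chac1, which encodes an enzyme that degrades glutathione, by 0.66 (SE 0.10). Asns, the asparagine synthetase gene, rose by 0.38 (SE 0.03), from 3733 ± 132.4 to 4871 ± 62.2. Atf4 itself was not called (0.06, adjusted p = 0.283), but it was after median centring (0.18) and quantile normalization (0.12) and without control replicate 2 (0.12). No rise was called in 3 carrier genes known to respond to ATF4: Slc38a2 and Slc7a11 were not called and Slc1a5 fell, as given above.

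ATF4 and C/EBP proteins bind as pairs to a mixed element, searched here as TGATGNAA on both strands. It occurs in 3.97% of all promoter windows and in those of 4 of the 26 tested genes: Slc7a11, Slc7a7, Slc6a21 and Slc1a4. Here too the share counts windows and the 4 counts genes, so they cannot be compared directly. Stretches around it are given for 3 of these carriers and for Asns and Chac1, because genes with these letters differed in direction. All are from RefSeq, GRCm38.p6, 5′ to 3′ on the gene's strand, with matches in capitals. Slc7a11 is at chr3:50443652-50443699 (minus), Slc7a7 at chr14:54418058-54418105 (minus, one of its 5 annotated starts), Slc6a21 at chr7:45282825-45282872 (plus), Asns at chr6:7693210-7693252 (minus) and Chac1 at chr2:119351029-119351076 (plus).
Slc7a11: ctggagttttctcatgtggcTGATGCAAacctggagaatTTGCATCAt
Slc7a7: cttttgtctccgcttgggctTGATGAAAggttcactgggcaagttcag
Slc6a21: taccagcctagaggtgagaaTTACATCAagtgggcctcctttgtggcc
Asns: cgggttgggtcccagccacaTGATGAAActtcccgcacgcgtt
Chac1: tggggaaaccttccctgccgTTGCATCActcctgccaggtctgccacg
Asns and Chac1 rose, Slc7a7 and Slc6a21 fell, and Slc7a11, which holds 2 matches on opposite strands, was not called. Slc7a7 holds another match across the same start, and that match also lies in the window of another of its starts. Of the other response genes searched, Trib3 and Vldlr hold a match and rose, and Ddit3 and Atf5 hold 0 and rose too (Vldlr by 0.29, or 0.44 with its probe sets averaged, and Atf5 by 0.23, or 0.35 after median centring).

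The E-box windows of Slc36a1 and Slc38a7 are given because both genes encode lysosomal carriers. They stand at chr11:55204289-55204334 (plus) and chr8:95853500-95853545 (minus) of GRCm38.p6, with CACGTG in capitals.
Slc36a1: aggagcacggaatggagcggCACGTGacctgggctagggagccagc
Slc38a7: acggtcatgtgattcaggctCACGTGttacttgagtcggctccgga
Slc36a1 holds a second match, across its start, not shown. It fell, the call being lost under both rescalings named above, and Slc38a7 was not called.

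Genes that sense amino acids for mTORC1 were mixed, with 10 rises and 5 falls among 26 tested (median 0.08). These shares are 38.5% and 19.2%, against 23.5% and 35.7% of all genes. The leucine-sensor family genes Sesn1 and Sesn3 fell, at −1.02 (SE 0.07; −0.67 if its probe sets are averaged) and −0.68 (SE 0.05). Rragd, which encodes a GTPase that brings mTORC1 to lysosomes, rose by 0.71 (SE 0.08) and Mtor by 0.54 (SE 0.04).

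Among enzymes of glutamine, glutamate and alanine 7 of 11 fell and 3 rose (median −0.28). The shares were 63.6% and 27.3%, against 35.7% and 23.5% of all genes. Prodh, which starts proline breakdown, fell from 2820 ± 187.6 to 1101 ± 30.1, and the alanine transaminase genes Gpt2 and Gpt fell too, at log2 changes of −1.22 and −0.69 (SE 0.03 and 0.05). Got1, which encodes the cytosolic aspartate transaminase, rose by 1.07 (SE 0.05), with means of 516.8 ± 39.5 and 1085 ± 17.0.

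Genes of cysteine, taurine and glutathione synthesis were divided, with 3 rises and 3 falls among 8 (median −0.09). Both shares are 37.5%, where 23.5% of all genes rose and 35.7% fell. Gss, the glutathione synthetase gene, rose by 0.46 (SE 0.07) and Cth, which makes cysteine, fell by 0.25 (SE 0.04; −0.13 after median centring). Enzymes of taurine synthesis went both ways: Ado and Fmo1 rose by 0.20 and 0.18 (0.32 and 0.30 after median centring), while Cdo1 and Csad fell by 0.10 and 0.13 (SE 0.02 and 0.04). After median centring Cdo1 was at 0.02 and Csad at 0.00, neither called. Csad also lost its call after quantile normalization (−0.06), without control replicate 3 (−0.08) or rosiglitazone replicate 3 (−0.11), and at −0.13 with no filter, a floor of 64 or no variance trend. Of 7 tested genes of arginine and polyamine metabolism 2 rose and 3 fell (median −0.08). These 28.6% and 42.9% stand beside 23.5% and 35.7% of all genes. Gamt, which completes creatine synthesis, fell by 1.52 (SE 0.07), from 446.0 ± 32.9 to 155.9 ± 11.99, and Asl fell by 0.39 (SE 0.05). Odc1, the first enzyme of polyamine synthesis, rose by 0.19 (SE 0.03; 0.31 after median centring and with the mean of its probe sets). Nos3 rose by 0.32 (SE 0.10), a call lost with no filter and without control replicate 2 (0.27) or rosiglitazone replicate 1 (0.26).

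**Figure D4:**
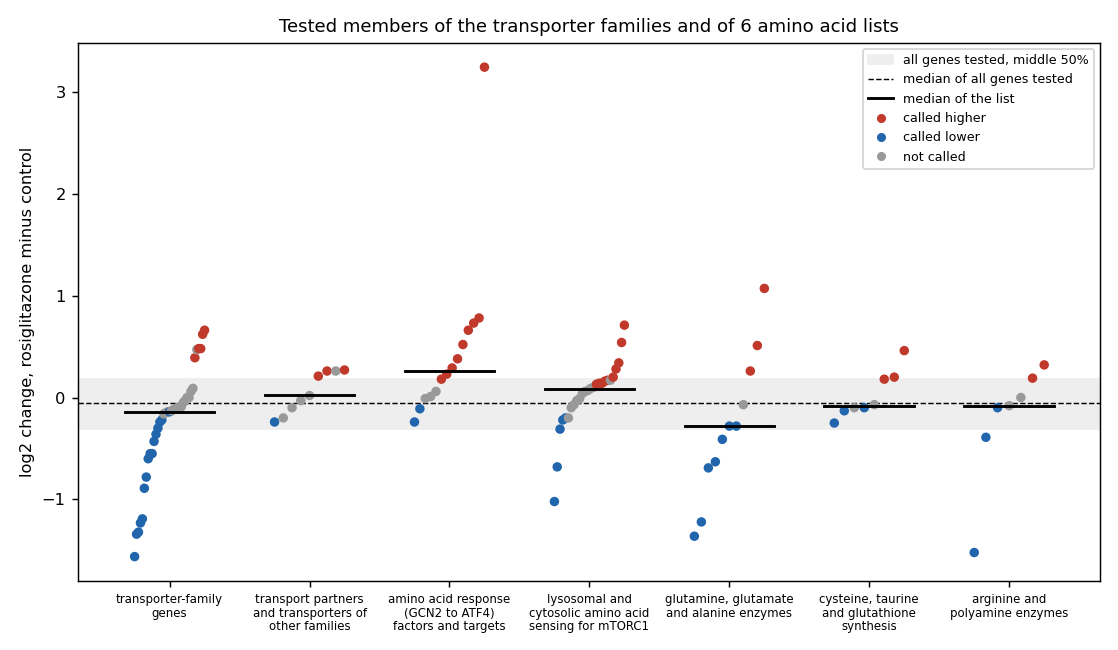
Log2 change (rosiglitazone minus control) of each tested gene of the transporter families and of 6 lists of amino acid handling, coloured by call, with each list's median as a bar and the median and middle 50% of all genes tested as a dashed line and grey band. The list medians run from −0.28 for glutamine, glutamate and alanine enzymes to 0.26 for the amino acid response, and the highest point is Fgf21.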

How the data were processed

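Per the labels, Affymetrix arrays measured total RNA of 6 samples. The values the authors deposited are linear intensity, 1 for each of 45101 probe sets. The authors' summarization and scaling are not given in the sources used here, and array medians ranged from 44.46 to 46.66. Probe sets were named through the platform annotation (34945 with 1 symbol, 932 with several, 9160 unnamed). Intensities under 16 were set to 16 and log2 was taken. The 64 control probe sets and the 40% with the lowest mean log2 value were left out. Each gene was read from its probe set with the highest such mean.

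The comparison used lmFit and eBayes (two-sided, with a variance trend) of limma 3.58.1 under R 4.3.3, adjusted by Benjamini-Hochberg over 12947 genes. An exact permutation test of 3 against 3 cannot go below 0.1. The precision is limited by the number of arrays. Where a whole group lay under the floor, the fold is a lower bound. Promoter windows came from RefSeq (GRCm38.p6) and matched 44 of the 59 genes by symbol. A summed marker level adds the intensities of a list's chosen probe sets.

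The genes and lists were chosen with earlier results of these data known, and the motifs after their matches were seen. All 59 genes may be named. Values per array are given for called genes with a log2 change of at least 0.5 in size and for Slc36a2, Slc7a10, Slc1a5, Slc1a3, Slc38a2, Slc7a11 and Slc6a6. From each other list up to 4 called genes with the largest change are named, and Slc3a2. Asns, Atf4, Atf5, Vldlr, Cdo1, Csad, Slc3a1 and Slc16a10, the named cell markers and the values per array of Slc38a10 were added after their values were seen.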

Additional observations from a re-analysis of the deposited data

How the results depend on the processing

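Single genes were followed over up to 18 alternatives, which leave out the stricter 1.5-fold and 0.01 settings given below. Of the 21 called transporter-family genes 12 kept their direction and their call in each alternative in which they were tested. The other 9 lost the call in at least one, and 0 changed direction. The 9 were Slc1a4, Slc1a6, Slc6a17, Slc6a21, Slc7a6, Slc7a6os, Slc7a7, Slc7a8 and Slc36a1. With a floor of 64, above all values of Slc1a6 and Slc7a8 and most of Slc6a21, their log2 changes were 0.00, 0.00 and −0.13. Of the 16 genes not called, 5 were called under some alternative. Of the other genes named, Cdo1 changed sign, from −0.10 to 0.02, not called, under median centring. Against a change of 1.5-fold (limma's treat), 0 genes were higher and 5 lower, where 2.49% and 6.86% of all genes were (Slc43a1, Slc43a3, Slc7a2, Slc1a3 and Slc7a8), and 6 of the 75 other list genes were called in place of 51. Leaving out each array in turn gave 5 to 5 higher, 15 to 18 lower and 49 to 51 list genes. Across these fits 21% to 22.8% of all genes were higher and 32.7% to 34.7% lower. At an adjusted p under 0.01, 5 were higher and 14 lower (19.2% and 30.7% of all genes). With no filter 4 of 59 genes were higher and 13 lower (14.5% and 23.2%). With probe sets ranked by mean linear intensity, chosen after seeing the data, 5 were higher and 16 lower (23.6% and 35.8%). The shared replicate numbers showed no sign of pairing. Deviations of same-numbered arrays correlated at −0.02, −0.02 and 0.06, and those of differently numbered arrays at −0.07 to 0.09. With 3 arrays per group this cannot exclude that same-numbered samples share a culture or batch. A fit that blocks on the replicate number had 5 higher and 17 lower genes (23.5% and 35.8% of all) and 51 called list genes, Slc7a1 being called at −0.14. Genes near the floor, where 22 could not be tested, are limited by their signal over background.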

Other observations

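Some of these genes lie side by side in the genome (order of protein-coding genes in RefSeq, GRCm38.p6, used here for neighbours only). Slc43a1 and Slc43a3 are separated on chromosome 2 by 1 protein-coding gene, Rtn4rl2, a Nogo receptor relative, which fell by 0.72 (SE 0.06, limma adjusted p = 1.23e-08). All 3 genes of this run fell. The gene before the run, Timm10, which encodes a chaperone of mitochondrial import, rose by 0.55 (SE 0.03, limma adjusted p = 4.9e-10), and the gene after it, Prg2, was too dim to test. On chromosome 11 the run Slc36a3, Slc36a2 and Slc36a1 has 3 neighbours that did not share a direction, at log2 changes of 0.06 (not called), 0.39 and −0.24. Gm2a, the gene before Slc36a3, fell by 0.72 (SE 0.03, limma adjusted p = 3.21e-11). The runs were picked after the values were seen and no test of neighbours was made.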
